A study of Sus scrofa with 20 samples.

Results

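The genes of the core circadian clock were described in backfat, the subcutaneous fat of the pig, and in liver. The 10 genes listed were ARNTL (also written BMAL1), CLOCK, PER1, PER2, PER3, CRY1, CRY2, NR1D1, NR1D2 and DBP, and they were taken by their symbols, with no threshold on their levels. A pig Ensembl identifier was paired with 9 of the 10 symbols in the gene table used here, and these 9 were found among the 31907 genes of the count table and all passed the filter on low counts that left 16275 genes for testing. PER3 had no identifier in that table and was not analysed here. The samples came from 5 Nanchukmacdon boars, a Korean pig breed, whose age is given as 22 months in the sample labels. Both tissues were taken as bulk tissue after the boars were euthanized with an anesthetic, no treatment is named in the labels, which mark every sample as WT, and 1 RNA-seq library was made per tissue and boar. The libraries are named here by tissue and by the number in the name of their column (65, 67, 69, 71 and 72), and the same number was read as the same boar. The bisulfite libraries of the study were not used here, and the hour of day at which the tissues were taken is not given in the sources used here.

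In mammals the clock is a feedback loop of transcription that runs in most cells of the body, liver and fat included. The proteins of ARNTL and CLOCK bind as a dimer to E-box sequences and activate PER, CRY, NR1D and DBP genes, and the PER and CRY proteins return to the nucleus and repress the dimer. NR1D1 and NR1D2 (REV-ERB alpha and beta) repress ARNTL through elements that the activating ROR receptors also bind, and DBP carries the rhythm to D-box sequences of output genes, so that transcripts of these genes rise and fall over the day, with ARNTL highest at another time than PER, NR1D and DBP.

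The promoters of the 9 genes were read from the Sscrofa11.1 assembly with RefSeq gene starts, and the letters known for clock binding were searched on both strands from 250 bases before to 50 bases after the start. The E-box CACGTG was found in the promoter of 1 of the 9 genes (PER1), beside 7.92% of all 19556 promoters. The E-box variant CACGTT was found in 2 (CRY2 and NR1D1), beside 5.32% of all promoters. AGGTCA, which is only part of a REV-ERB and ROR element, was found in 3 (CRY2, DBP and NR1D2), beside 14.1%. The bases beside AGGTCA were not part of the search, so these 3 matches are not shown to be whole elements. The D-box letters TTATGTAA and TTACGTAA were found in none of the 9, beside 0.936% of all promoters. The 5 promoters with a match to the searched letters are printed as the 250 bases before the start, 5′ to 3′ on the strand of the gene. The matched letters are in capitals (AACGTG is CACGTT read on the other strand).

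PER1 (chr12:53376724-53376973, minus strand): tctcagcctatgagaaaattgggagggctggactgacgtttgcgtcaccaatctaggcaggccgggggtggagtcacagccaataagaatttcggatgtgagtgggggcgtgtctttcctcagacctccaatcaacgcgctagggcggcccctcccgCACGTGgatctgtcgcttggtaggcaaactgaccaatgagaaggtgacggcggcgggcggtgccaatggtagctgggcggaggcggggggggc
CRY2 (chr2:16620381-16620630, minus strand): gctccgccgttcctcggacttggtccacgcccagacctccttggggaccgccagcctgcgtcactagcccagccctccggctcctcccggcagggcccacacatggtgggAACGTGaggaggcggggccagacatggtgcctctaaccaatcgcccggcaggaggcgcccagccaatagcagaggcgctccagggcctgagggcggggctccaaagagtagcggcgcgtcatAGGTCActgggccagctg
NR1D1 (chr12:22263299-22263548, plus strand): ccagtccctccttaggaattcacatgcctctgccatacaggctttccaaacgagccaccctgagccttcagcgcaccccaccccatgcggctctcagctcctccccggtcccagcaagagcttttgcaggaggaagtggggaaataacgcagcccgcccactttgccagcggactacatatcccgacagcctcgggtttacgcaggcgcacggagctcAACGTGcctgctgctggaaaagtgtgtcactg
NR1D2 (chr13:10756704-10756953, plus strand): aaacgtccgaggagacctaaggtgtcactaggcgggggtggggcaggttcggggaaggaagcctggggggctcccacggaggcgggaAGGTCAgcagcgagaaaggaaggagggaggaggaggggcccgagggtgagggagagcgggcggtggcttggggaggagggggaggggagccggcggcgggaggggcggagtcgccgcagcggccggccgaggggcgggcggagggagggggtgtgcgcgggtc
DBP (chr6:53993045-53993294, minus strand): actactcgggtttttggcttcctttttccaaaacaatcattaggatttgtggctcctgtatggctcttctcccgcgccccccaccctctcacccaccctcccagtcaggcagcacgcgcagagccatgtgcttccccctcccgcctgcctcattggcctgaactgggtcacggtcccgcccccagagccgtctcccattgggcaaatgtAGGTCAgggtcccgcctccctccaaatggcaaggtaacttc

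The match in PER1 begins at position -93 from the gene start and that in NR1D1 at -32. In CRY2 the E-box variant begins at -140 and AGGTCA at -18, while AGGTCA begins at -41 in DBP and at -163 in NR1D2. These are matches of letters in a short window and no binding was measured.

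The 10 libraries held between 43820042 and 61772737 counts. Genes that mark fat cells summed to between 11292 and 17814 CPM of all counts in the library in backfat and to at most 12.5 CPM in liver (7 of 7 markers measured), with ADIPOQ between 0 and 0.0558 CPM in liver. Hepatocyte markers (8 of 8 measured) summed to between 17361 and 97919 CPM in liver and to between 3.85 and 5.54 CPM in 4 backfat libraries, but to 154 CPM in backfat 69. Liver 67 stood apart from the other liver libraries, since it had the lowest hepatocyte sum, the highest sum of the skeletal muscle genes ACTA1 and CKM (97.4 CPM against at most 0.958 CPM, 2 of 5 listed genes measured) and the highest red cell sum (1250 CPM against at most 279 CPM, 3 of 3 measured). In backfat the skeletal muscle genes summed to between 7.30 and 549 CPM and the red cell genes to between 131 and 572 CPM. Transcripts from mitochondrial DNA made up 44.5% of all counts in liver 67 and between 6.38% and 20.2% in the other 9 libraries. Fibroblast markers (4 of 4 measured) summed to between 44532 and 79896 CPM in backfat and between 526 and 753 CPM in liver, endothelial markers (2 of 3) to between 590 and 1164 CPM and between 52.5 and 102 CPM. Macrophage markers (4 of 4) lay between 149 and 328 CPM in backfat and between 203 and 285 CPM in liver, and lymphocyte markers (5 of 5) between 16.3 and 52.2 CPM and between 14.6 and 36.4 CPM. These sums were made without TMM factors, and the CPM of the clock genes below were made with them. The part of these differences in the values of the clock genes was not tested, and in bulk tissue fewer cells of a type and less RNA per cell cannot be told apart.

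Of the 9 clock genes, 4 were higher in backfat (CRY2, NR1D1, NR1D2 and DBP), 2 were higher in liver (ARNTL and CRY1) and 3 were not called (CLOCK, PER1 and PER2) in the quasi-likelihood test of edgeR (the edgeR test), where a gene was called when its Benjamini-Hochberg false discovery rate (FDR) over all tested genes was 0.05 or less. Of all genes tested, 55.0% were called in either direction, 28.0% as higher in backfat and 27.0% as higher in liver. The count of 6 of 9 was therefore near the share of all genes. With library size alone as the scaling, which raised the median of all tested genes to 0.71 on the log2 scale, the split was 7 higher in backfat and 1 higher in liver, with CLOCK, PER1 and PER2 also called and CRY1 not. ARNTL, higher in liver, was the only 1 of the 9 to be a DEG, which is a called gene whose log2 fold change reached 2 or more in size, whereas 22.3% of all genes were DEGs and 11.2% were DEGs higher in liver. With library size alone ARNTL was still called but at -1.62 was no DEG, and NR1D1 (2.11), NR1D2 (2.43) and DBP (2.11) were DEGs higher in backfat. Relative to the raised median of that scaling, ARNTL was at -2.33, and NR1D1, NR1D2 and DBP were below 2. The CPM values of the tissues did not overlap for 4 of the 9 genes (ARNTL, CRY2, NR1D1 and NR1D2), beside 42.6% of all genes. The median log2 fold change of backfat over liver was 0.52 for the 9 genes and 0.00 for all genes tested.

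**Figure D1:**
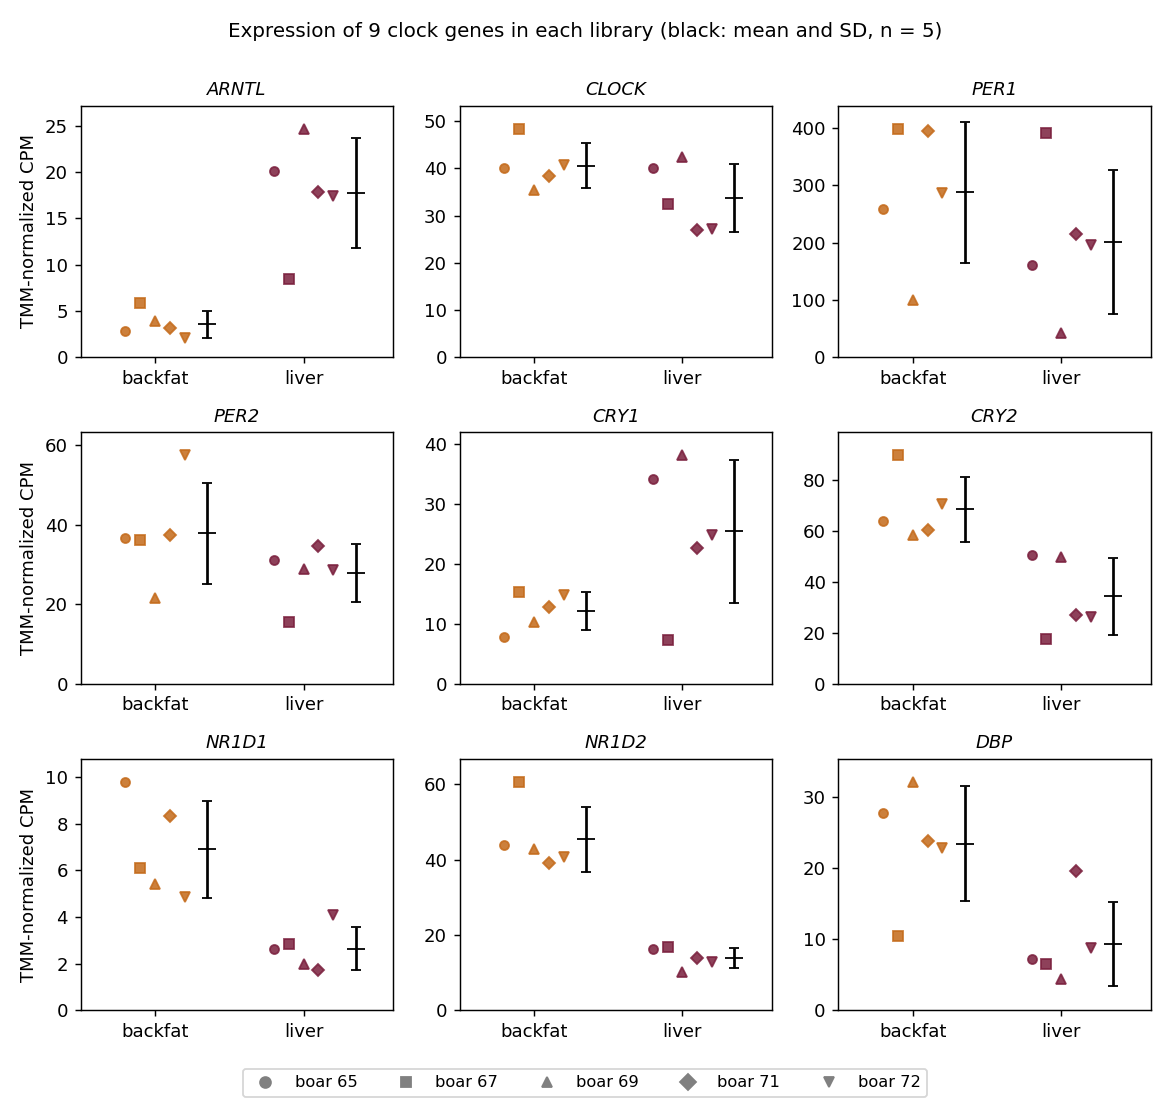
Expression of the 9 clock genes in the 10 libraries, with the tissue on the x axis and TMM-normalized CPM on the y axis of each panel, 1 point per library with the shape giving the boar, and the mean and SD of 5 libraries in black. The values of backfat and liver are separate for ARNTL, CRY2, NR1D1 and NR1D2 and overlap for the other 5 genes, and boar 69 is lowest for PER1 in both tissues.

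ARNTL, the activator that pairs with CLOCK, was about 5-fold higher in liver than in backfat. Its gene (ENSSSCG00000013397) lies on the minus strand of chromosome 2, from 45895637 to 46025174, and shares no exon bases with another RefSeq gene. In backfat ARNTL was at 2.79, 5.89, 3.94, 3.10 and 2.01 CPM in boars 65, 67, 69, 71 and 72, and in liver at 20.1, 8.42, 24.7, 17.9 and 17.5 CPM. The highest backfat library and the lowest liver library were both those of boar 67, and no liver library was as low as any backfat library. The means were 3.54 ± 1.48 CPM in backfat and 17.7 ± 5.95 CPM in liver (SD, n = 5 each), a log2 fold change of -2.32 (SE 0.33), with an FDR of 7.81e-05 in the edgeR test. Without liver 67 the log2 fold change was -2.53, and over all 19 alternatives it lay between -2.58 and -1.62.

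CLOCK, the partner of ARNTL in the dimer, did not pass the test. CLOCK (ENSSSCG00000008909, minus strand of chromosome 8, 54793323 to 54910192) was at 40.0, 48.5, 35.5, 38.4 and 40.6 CPM in backfat and at 40.1, 32.5, 42.4, 26.9 and 27.2 CPM in liver, in the same order of boars. The ranges overlapped, with liver 69 above 4 of the 5 backfat libraries. The log2 fold change was 0.26 (SE 0.17), with an FDR of 0.206 in the edgeR test. CLOCK shares 3027 exon bases with TMEM165 on the other strand in RefSeq. Reads that fell on exons of more than 1 gene were left out of the counts, and the overlap in the Ensembl annotation used for counting was not checked.

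The paralogs of the activators were both higher in backfat. ARNTL2, which can take the place of ARNTL in the dimer, had 43.4 ± 7.98 CPM in backfat and 0.248 ± 0.142 CPM in liver, a log2 fold change of 7.45 (SE 0.34) with an FDR of 7.03e-09 in the edgeR test. Its backfat libraries ran from 33.5 to 55.7 CPM and its liver libraries from 0.149 to 0.486 CPM, with 5 to 18 counts per liver library. The direction was thus opposite to that of ARNTL. On the FPKM scale, which divides CPM by the exon length of the gene in kilobases and so allows levels of different genes to be set side by side, backfat held 0.701 ± 0.293 FPKM of ARNTL and 4.71 ± 0.866 FPKM of ARNTL2, and liver held 3.51 ± 1.18 FPKM of ARNTL and 0.0269 ± 0.0154 FPKM of ARNTL2. ARNTL2 was above ARNTL in every backfat library and below it in every liver library. NPAS2, a paralog of CLOCK, was at 9.61 ± 1.15 CPM in backfat and 5.57 ± 2.49 CPM in liver, with overlap of the tissues, a log2 fold change of 0.79 (SE 0.30) and an FDR of 0.0385 in the same test.

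PER1 and PER2, the period repressors, were not called. PER1 (ENSSSCG00000017983, minus strand of chromosome 12, 53361863 to 53376723) was at 258, 399, 98.97, 395 and 287 CPM in backfat and at 161, 391, 41.8, 214 and 196 CPM in liver in boars 65, 67, 69, 71 and 72. In each tissue boar 67 was highest and boar 69 lowest, and in all 5 boars backfat was above liver. The log2 fold change was 0.52 (SE 0.49), with an FDR of 0.395 in the edgeR test. With the boar as a block the log2 fold change was 0.68 and the FDR 0.0345, so PER1 was called as higher in backfat in the paired fit, and it was also called (1.12, FDR 0.0402) when backfat 69 and liver 67 were both left out. PER2 (ENSSSCG00000016338, minus strand of chromosome 15, 137793419 to 137837854) was at 36.6, 36.1, 21.7, 37.5 and 57.5 CPM in backfat and at 31.2, 15.6, 29.0, 34.7 and 28.7 CPM in liver. Its lowest backfat library, that of boar 69, lay below 4 of the 5 liver libraries, and the log2 fold change of 0.44 (SE 0.26) had an FDR of 0.169.

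The cryptochrome repressors CRY1 and CRY2, partners of the PER proteins, were called in opposite directions. CRY1 (ENSSSCG00000000164, plus strand of chromosome 5, 13275265 to 13429566) was at 7.83, 15.2, 10.2, 12.7 and 14.7 CPM in backfat and at 34.2, 7.26, 38.1, 22.6 and 24.9 CPM in liver in boars 65, 67, 69, 71 and 72. Of the liver libraries 4 lay above all backfat libraries, and liver 67 lay below all of them. The log2 fold change was -1.06 (SE 0.36), with an FDR of 0.0242 in the edgeR test. With the boar as a block the call was lost (-0.95, FDR 0.0936), and it was also lost without backfat 65 (-0.93, FDR 0.0602), backfat 69 (-1.003, FDR 0.0538), liver 65 (-0.92, FDR 0.0598) or liver 69 (-0.88, FDR 0.0606). Without liver 67 the log2 fold change was -1.33, with an FDR of 0.000428. CRY1 shares 3978 exon bases in RefSeq with MTERF2 and TMEM263, which was likewise not checked in the annotation used for counting.

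CRY2 (ENSSSCG00000013270, minus strand of chromosome 2, 16587101 to 16620380) was at 63.8, 89.7, 58.4, 60.2 and 70.5 CPM in backfat and at 50.7, 17.5, 49.6, 27.2 and 26.2 CPM in liver. Every backfat library was above every liver library, with the nearest pair being backfat 69 and liver 65. The means of 68.5 ± 12.7 CPM and 34.2 ± 15.0 CPM (SD, n = 5) gave a log2 fold change of 1.00 (SE 0.28) and an FDR of 0.00874 in the edgeR test. Like CRY1, CRY2 had its lowest liver value in boar 67 and its higher liver values in boars 65 and 69.

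The REV-ERB receptors NR1D1 and NR1D2, which repress ARNTL, were both higher in backfat. NR1D2 (ENSSSCG00000027017, plus strand of chromosome 13, 10756954 to 10791219) was at 43.9, 60.6, 42.7, 39.2 and 40.7 CPM in backfat and at 16.2, 16.7, 10.2, 13.8 and 13.0 CPM in liver in boars 65, 67, 69, 71 and 72. The values within each tissue lay close together apart from backfat 67, and the lowest backfat library was above the highest liver library. The log2 fold change was 1.70 (SE 0.18), with an FDR of 6.75e-06 in the edgeR test, and over the 19 alternatives it lay between 1.58 and 2.43. NR1D1 (ENSSSCG00000036933, plus strand of chromosome 12, 22263549 to 22274131) was at 9.78, 6.10, 5.42, 8.33 and 4.87 CPM in backfat and at 2.62, 2.84, 1.996, 1.74 and 4.07 CPM in liver. The tissues did not overlap, although backfat 72 and liver 72 were close, and the log2 fold change was 1.38 (SE 0.30) with an FDR of 0.00169. NR1D1 shares 2985 exon bases with THRA on the other strand in RefSeq, and the overlap in the annotation used for counting was not checked.

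RORA, a ROR receptor that activates ARNTL through the same elements, was higher in liver. It had 3.60 ± 0.567 CPM in backfat and 20.2 ± 7.09 CPM in liver, a log2 fold change of -2.49 (SE 0.24) with an FDR of 2.99e-06 in the edgeR test, and its values did not overlap between the tissues. RORB had too few counts to be tested. ARNTL and RORA were thus higher in liver, and both REV-ERB receptors were higher in backfat. A link between the levels of these receptors and that of ARNTL was not tested.

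DBP, a transcription factor of the PAR bZIP family that acts on D-boxes, was higher in backfat. DBP (ENSSSCG00000003148, minus strand of chromosome 6, 53986955 to 53993044) was at 27.8, 10.5, 32.1, 23.8 and 22.9 CPM in backfat and at 7.26, 6.56, 4.46, 19.6 and 8.76 CPM in liver in boars 65, 67, 69, 71 and 72. The tissues overlapped through 2 libraries, backfat 67, which was low, and liver 71, which was high. The log2 fold change was 1.33 (SE 0.39), with an FDR of 0.0116 in the edgeR test, and it was 1.09 with an FDR of 0.0549 when backfat 69 and liver 67 were both left out. The other PAR bZIP factors were called in different directions. TEF was higher in backfat (49.6 ± 16.6 against 27.5 ± 10.996 CPM, log2 fold change 0.85, FDR 0.0222). HLF was higher in liver (18.3 ± 4.35 against 52.2 ± 14.1 CPM, log2 fold change -1.51, FDR 0.000178). NFIL3, which represses through the same D-boxes, was at 47.5 ± 24.1 and 50.7 ± 9.18 CPM (log2 fold change -0.09, FDR 0.807).

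**Figure D2:**
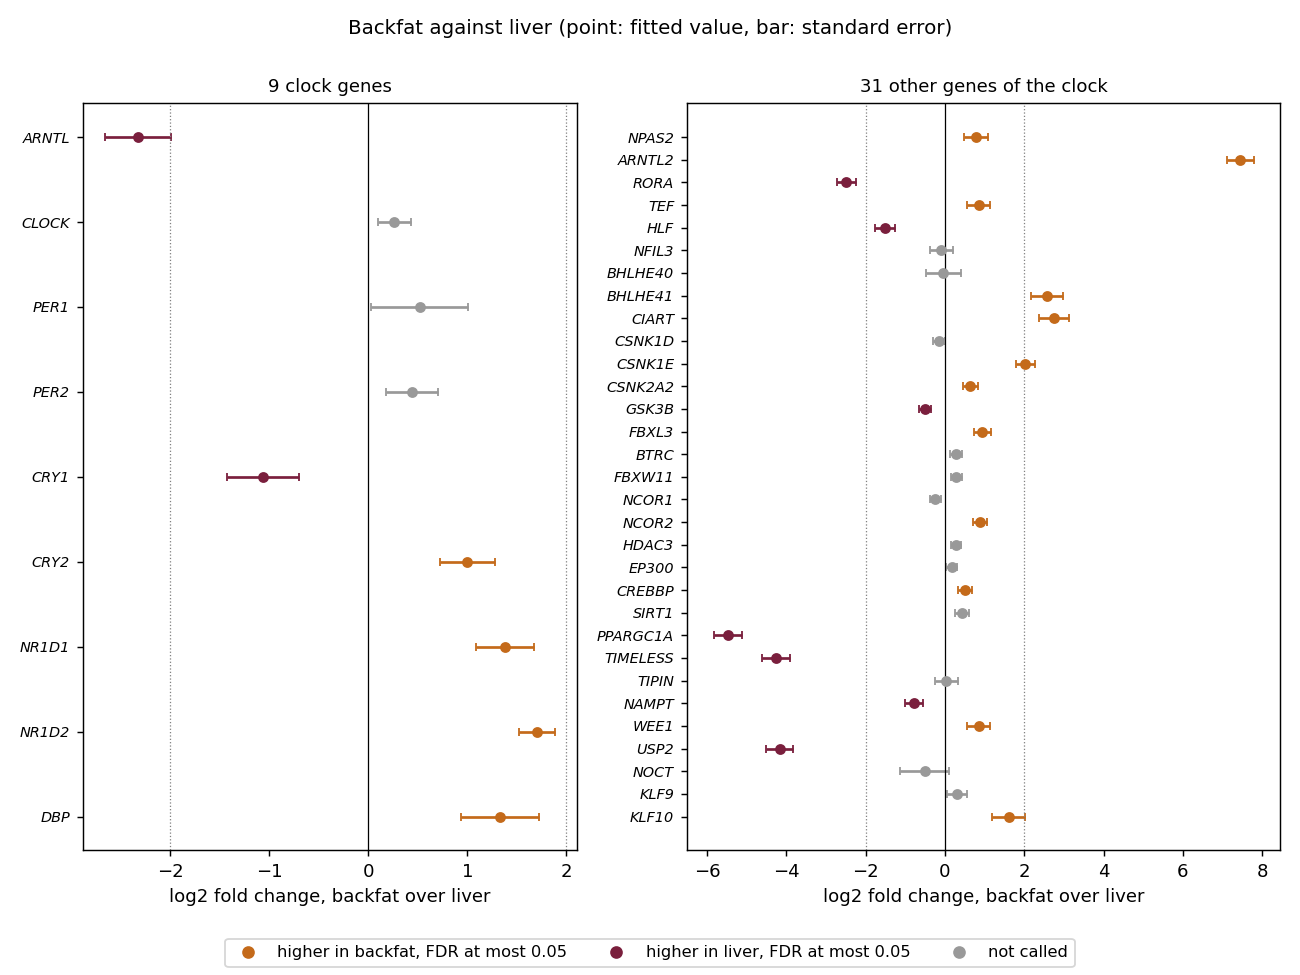
Log2 fold change of backfat over liver on the x axis for the 9 clock genes (left) and 31 other genes of the clock (right), with fitted values as points, standard errors as bars and dotted lines at a log2 fold change of 2 in either direction. ARNTL at -2.32 is the only 1 of the 9 genes beyond a dotted line, and ARNTL2 at 7.45 and PPARGC1A at -5.47 are the ends of the right panel.

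Since the clock is a feedback loop, the balance of pairs of its genes was also measured within each library. It was taken as the log2 of the ratio of their counts, with 1 added to each count. This ratio needs no scaling between libraries, although it depends on the lengths of the genes, so only its difference between tissues was compared, for 6 pairs. ARNTL over CLOCK was at -3.84, -3.04, -3.17, -3.62 and -4.33 in backfat 65, 67, 69, 71 and 72 and at -0.99, -1.94, -0.78, -0.59 and -0.64 in liver, a difference of backfat minus liver of -2.61. Every liver library was above every backfat library, although liver 67 was nearest to backfat. The exact two-sided permutation test over 252 arrangements gave p = 0.00794 (0.0119 after Benjamini-Hochberg adjustment over the 6 pairs), the smallest p that this design can give.

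CRY1 over CRY2 was at -3.03, -2.56, -2.51, -2.24 and -2.26 in backfat and at -0.57, -1.27, -0.38, -0.27 and -0.07 in liver, a difference of -2.01 (exact permutation p = 0.00794, adjusted 0.0119). Liver 67, which lay below all backfat libraries in CRY1 itself, lay above all of them in this ratio. ARNTL over NR1D1, the activator over its repressor, was at -1.81, -0.05, -0.46, -1.42 and -1.27 in backfat and at 2.93, 1.56, 3.62, 3.34 and 2.09 in liver, a difference of -3.71, which is 13.1-fold. ARNTL over DBP was at -3.31, -0.83, -3.02, -2.93 and -3.50 in backfat and at 1.47, 0.36, 2.47, -0.13 and 0.99 in liver, a difference of -3.75, which is 13.5-fold. Both pairs had an exact permutation p of 0.00794 (adjusted 0.0119) and did not overlap between the tissues. With the libraries paired by boar, these 4 pairs each had an exact sign-flip p of 0.0625, the smallest that 5 pairs allow, so this test could not reach 0.05. In CRY1 over CRY2, ARNTL over NR1D1 and ARNTL over DBP, a gene called higher in liver stood over 1 called higher in backfat. ARNTL over CLOCK set a called gene over 1 not called. The ratios come from the same libraries as those calls and are no separate evidence for them.

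The ratios within the PER and the NR1D pair did not pass the test. PER1 over PER2 had a mean of 2.84 ± 0.59 in backfat and 2.59 ± 1.46 in liver (SD, n = 5, exact permutation p = 0.722, adjusted 0.722), with liver libraries from 0.53 in boar 69 to 4.64 in boar 67. NR1D1 over NR1D2 had a mean of -2.75 ± 0.52 in backfat and -2.43 ± 0.48 in liver (SD, n = 5, exact permutation p = 0.349, adjusted 0.419).

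**Figure D3:**
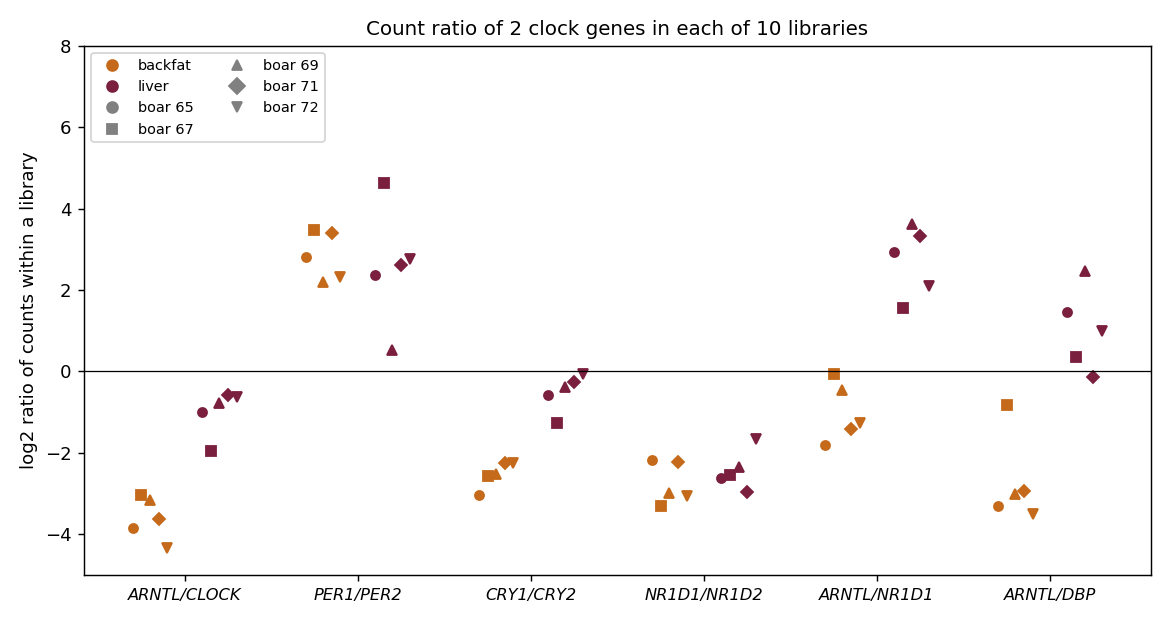
Log2 ratio of the counts of 2 clock genes on the y axis for 6 pairs on the x axis, 1 point per library, with colour giving the tissue and shape the boar. Backfat and liver do not overlap for ARNTL/CLOCK, CRY1/CRY2, ARNTL/NR1D1 and ARNTL/DBP and overlap for PER1/PER2 and NR1D1/NR1D2.

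The order of the levels within a tissue was compared on the FPKM scale. The FPKM of CLOCK, CRY1 and NR1D1, which share exon bases with other genes in RefSeq, could be too low if reads were left out there. PER1 was first in both tissues, at 51.5 ± 22.0 FPKM in backfat and 36.0 ± 22.5 FPKM in liver. In backfat PER1 was followed by CRY2 (13.1 ± 2.43), DBP (12.2 ± 4.23), NR1D2 (8.72 ± 1.66), PER2 (5.29 ± 1.78), CLOCK (3.80 ± 0.451), CRY1 (3.19 ± 0.817), NR1D1 (2.61 ± 0.786) and ARNTL (0.701 ± 0.293 FPKM). The ranges of neighbours in this order overlapped except between PER1 and CRY2 and between NR1D1 and ARNTL, so ARNTL was the lowest of the 9 genes in backfat. In liver the order after PER1 was CRY1 (6.66 ± 3.15), CRY2 (6.54 ± 2.87), DBP (4.88 ± 3.10), PER2 (3.89 ± 1.01), ARNTL (3.51 ± 1.18), CLOCK (3.16 ± 0.674), NR1D2 (2.68 ± 0.504) and NR1D1 (1.00 ± 0.344 FPKM). Neighbours overlapped there except NR1D2 and NR1D1, so NR1D1 was lowest in liver. Among the 8 genes from PER1 to NR1D2, none was separated by its spread from its neighbours in this order. For PER1 the overlap came from liver 69 alone, at 7.49 FPKM. Its other liver libraries were at 28.9 FPKM or more, and CRY1, the next gene, reached at most 9.996 FPKM.

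The clock genes differed in how much they varied between boars of the same tissue. PER1 had the largest SD of log2 CPM in both tissues, 0.82 in backfat and 1.19 in liver, above 90.9% and 90.6% of all genes tested, and its highest library was 4.03 times its lowest in backfat and 9.34 times in liver. By SD, CRY1 in liver (0.95, above 83.8% of genes), DBP in liver (0.79, above 75.7%), CRY2 in liver (0.66, above 66.9%) and DBP in backfat (0.62, above 82.6%) followed. CLOCK was the least variable in backfat (0.17, above 13.7% of genes), and in liver its SD of 0.31 was above 25.8% of genes. The median SD of the 9 genes was 0.42 in backfat and 0.59 in liver, beside 0.33 and 0.49 for all genes tested. Many of these values rested on 1 library. The SD of PER1 was 0.32 without backfat 69 and 0.55 without liver 69, that of CRY1 in liver was 0.36 without liver 67, and that of DBP was 0.22 without backfat 67 and 0.41 without liver 71. Without backfat 67 the SD in backfat fell to 0.09 for CLOCK, from 0.25 to 0.12 for CRY2 and from 0.25 to 0.07 for NR1D2, so NR1D2 was then less variable than CLOCK. Without liver 67 the SD in liver fell to 0.23 for ARNTL and to 0.13 for PER2. The SD of PER2 was 0.32 without backfat 69, that of CRY1 was 0.26 without backfat 65 and that of NR1D2 was 0.18 without liver 69. With library size alone the SD of CLOCK in liver was 0.49.

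The deviation of PER1 from the mean of its tissue had the same sign in backfat and liver in 5 of 5 boars. It was 0.63 in backfat and 1.27 in liver in boar 67 on the log2 scale, -1.39 and -1.95 in boar 69, 0.61 and 0.41 in boar 71, 0.15 and 0.28 in boar 72, and close to 0 in both tissues in boar 65. Boar 69 was thus low and boar 67 high in both tissues. PER2 had the same sign in 4 of 5 boars and each of the other 7 genes in 1 to 3 of 5. Of the PER2 deviations in backfat behind this count, those of boar 65 (0.017) and boar 67 (-0.0033) were close to 0. The share of all tested genes with such counts was not calculated, so the counts are a description only. ARNTL went the other way in boar 67, at 0.82 in backfat and -0.99 in liver. With 5 boars no correlation was calculated.

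Libraries of 1 boar held the highest or lowest value of several genes. Backfat 67 had the highest backfat level of 6 of the 9 genes (ARNTL, CLOCK, PER1, CRY1, CRY2 and NR1D2) and the lowest of DBP. Liver 67 had the lowest liver level of 4 genes (ARNTL, PER2, CRY1 and CRY2) and the highest of PER1 and NR1D2, and it was the library with the highest mitochondrial share and the lowest hepatocyte sum. Backfat 69, the library with hepatocyte transcripts, had the lowest level of 4 genes (CLOCK, PER1, PER2 and CRY2) and the highest of DBP. In boar 69, liver was highest in ARNTL, CLOCK and CRY1 and lowest in PER1, NR1D2 and DBP. Their part in the spread was not tested.

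**Figure D4:**
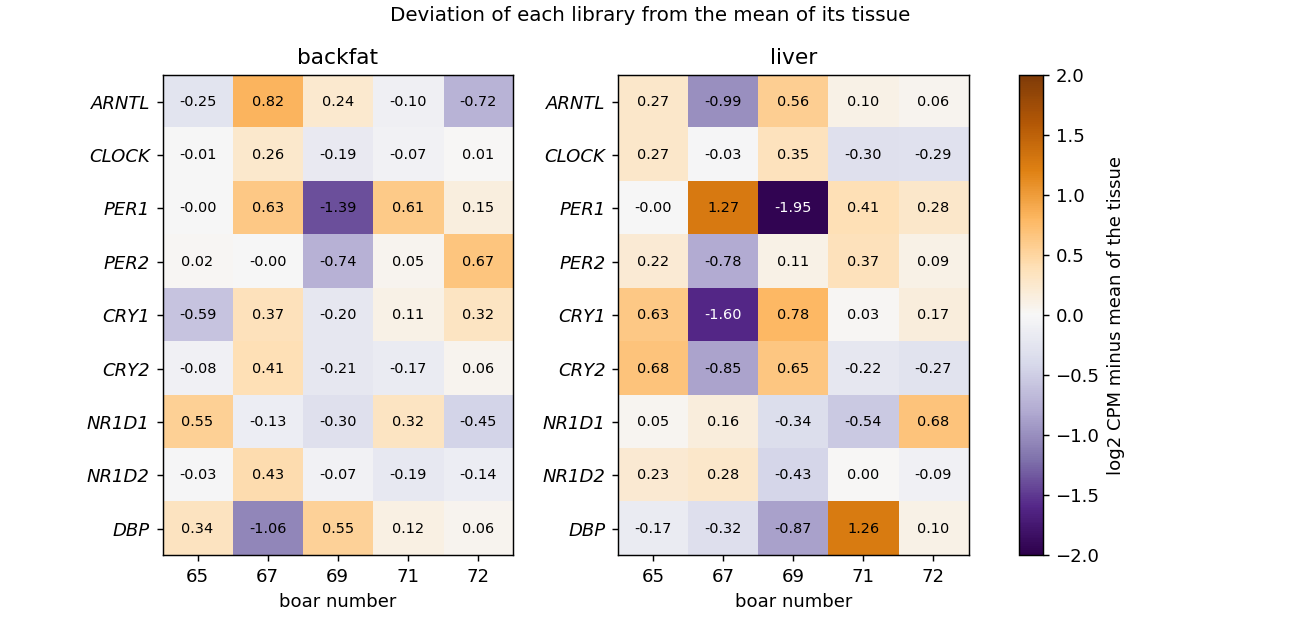
Deviation of the log2 CPM of each library from the mean of its tissue for the 9 clock genes (rows) in the 5 boars (columns), backfat on the left and liver on the right, with the value printed in each cell. PER1 is high in boar 67 (0.63 and 1.27) and low in boar 69 (-1.39 and -1.95) in both tissues, and CRY1 is low in liver 67 (-1.60) but not in backfat 67 (0.37).

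For the 4 genes with the largest spread, the genes with the most similar profile over the 10 libraries were named from 13026 genes with at least 10 counts in every library, by the root mean square difference of centred log2 CPM. For PER1 these were KCND1 (0.40) and 2 genes without a symbol, and for DBP C3orf18 (0.33), LRRC3B (0.36) and PCDHGA4 (0.37). For CRY1 they were PROS1 (0.20), LACTB (0.23) and PPL (0.24), and for ARNTL GSTK1 (0.30), SFT2D2 (0.30) and 1 gene without a symbol (0.30). The nearest profile to that of CRY1 was thus closer than the nearest to that of PER1. This distance was not scaled by the spread of each gene, and the mean SD within tissues was 1.01 for PER1 and 0.67 for CRY1. It therefore cannot tell which of these genes had the better match. These profiles include the difference between the tissues and are a description only.

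The wider clock was read from 34 other genes, the activator paralogs, ROR receptors, PAR bZIP factors and NFIL3 above included, of which 32 had an identifier and 31 were tested. Of these 31, 12 were higher in backfat, 7 were higher in liver and 12 were not called, and 8 were DEGs, beside 55.0% called and 22.3% DEGs among all genes tested. Their median log2 fold change was 0.28. With library size alone 20 were higher in backfat and 5 in liver.

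The further repressors of the ARNTL and CLOCK dimer were 2 of 3 higher in backfat. CIART (CHRONO), which represses the dimer, was at 37.5, 21.0, 10.5, 36.6 and 30.2 CPM in backfat and at 3.12, 6.45, 2.25, 4.55 and 3.85 CPM in liver in boars 65, 67, 69, 71 and 72. Boar 69 was lowest in both tissues, as for PER1, and no liver library reached a backfat library. The log2 fold change was 2.75 (SE 0.37), with an FDR of 4.79e-05 in the edgeR test. BHLHE41 (DEC2), which competes for E-boxes, had 5.78 ± 1.81 CPM in backfat and 0.964 ± 0.460 CPM in liver (log2 fold change 2.58, FDR 0.000158). The third, BHLHE40, was not called.

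Of the 4 kinases tested, 2 were higher in backfat and 1 in liver. CSNK1E, a casein kinase that phosphorylates PER proteins, had 56.9 ± 10.1 CPM in backfat and 14.0 ± 4.74 CPM in liver (log2 fold change 2.03, FDR 1.49e-05 in the edgeR test) and was a DEG. Its paralog CSNK1D, at 115 ± 9.22 CPM in backfat and 128 ± 10.9 CPM in liver, was not called. Of the 3 subunits of ubiquitin ligases that mark CRY or PER proteins, 1 was higher in backfat and 2 were not called. Of 7 coregulators 2 were higher in backfat, 1 was higher in liver and 4 were not called. The 1 higher in liver was PPARGC1A, a coactivator that acts with ROR receptors, at 0.426 ± 0.149 CPM in backfat and 19.1 ± 7.84 CPM in liver (log2 fold change -5.47, FDR 1.02e-07).

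Among 6 output genes 2 were higher in backfat, 2 were higher in liver and 2 were not called. USP2, a deubiquitinase whose transcript cycles in many tissues, was the 1 DEG of them, at 2.23 ± 0.463 CPM in backfat and 40.0 ± 16.0 CPM in liver (log2 fold change -4.17, FDR 5.33e-07 in the edgeR test). Of the timeless complex, TIMELESS was at 3.48 ± 1.43 CPM in backfat and 66.6 ± 18.7 CPM in liver (log2 fold change -4.26, FDR 5.33e-07) and TIPIN was not called. TIMELESS and CSNK1E were not found under those symbols among the protein-coding RefSeq genes placed on chromosomes. An overlap of either gene with a neighbouring gene was therefore not checked.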

How the data were processed

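Total RNA of backfat and liver was sequenced as paired reads. The authors checked reads with FastQC, removed adapters with Trimmomatic, mapped them to Sscrofa11.1 by HISAT2 and deposited raw read counts per gene, made with featureCounts 2.0.1 on exons of Ensembl release 99 without use of strand. Per the file headers, reads on several places or genes were left out, so genes with shared exons can lose reads. The labels also name Trim Galore, SAMtools and Bismark.

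Read counts were tested with edgeR 4.0.16 under R 4.3.3: filterByExpr by tissue, TMM, and the quasi-likelihood test (glmQLFit, glmQLFTest) with tissue as the only term, Benjamini-Hochberg adjusted over 16275 genes. Positive log2 fold changes are higher in backfat. CPM and FPKM used TMM library sizes. Ratios and figures used R and Python 3.11.15 with matplotlib 3.10.9. Fits were tested on simulated counts. The clock genes and lists were chosen with earlier results of these data known. Genes named beyond the 9 are the DEGs among 34 other clock genes, 5 paralogs or relatives in any case, and 3 profile neighbours for each of 4 genes. BHLHE40, CSNK1D and TIPIN were named after their values were seen. A further result is not reported here. Sequences and positions are from RefSeq for Sscrofa11.1.

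Alternatives were DESeq2 1.42.0, limma 3.58.1 (voom), other scalings and filters, the boar as a block, and leaving out libraries. The pairing by boar comes from column names, and deviations of same-numbered libraries correlated across genes at 0.235, 0.108, 0.0479, 0.156 and 0.0916 (boars 65, 67, 69, 71 and 72), beside -0.215 to 0.123 for different boars. The boars are the replicates, and the main edgeR and permutation tests set the tissue difference against the spread between libraries, 5 per tissue. These tests took the 10 libraries as independent, although the same boars gave both tissues. With the boar as a block, the calls of PER1 and CRY1 changed. Methylation files hold calls by read position and were not used here.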

Additional observations from a re-analysis of the deposited data

Results flagged for a closer look

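In each tissue and for each of the 9 clock genes, the library farthest out was checked by its gap to the nearest of the others over the whole range, against Dixon's critical value of 0.71 for 5 libraries. The check was made on CPM and was not repeated on log2 CPM. Of these 18 groups, 2 had a library apart, and chance gives about 1 in 20 where values are normally distributed, which was not tested. NR1D2 was at 60.6 CPM in backfat 67, above 39.2 to 43.9 CPM in the other backfat libraries, and without it the log2 fold change was 1.58. DBP was at 19.6 CPM in liver 71, above 4.46 to 8.76 CPM in the other liver libraries, and its ratio of 0.715 was only just above the critical value.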

How the results depend on the processing

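The calls of ARNTL, CRY2, NR1D1 and NR1D2 were the same under all 19 alternatives, and none of the 9 log2 fold changes changed sign. With library size alone as the scaling, which moved the median of all tested genes on the log2 scale from 0.00 to 0.71, 7 clock genes were higher in backfat, 1 was higher in liver and 3 were DEGs, against 4, 2 and 1, where the 3 DEGs were NR1D1, NR1D2 and DBP and no longer ARNTL, and 20 other clock genes were higher in backfat against 12. CLOCK (0.95), PER1 (1.30) and PER2 (1.15) were then called and CRY1 (-0.41, FDR 0.368) was not. Relative to the shifted median these values were 0.24, 0.59, 0.44 and -1.12. On the same relative scale ARNTL was at -2.33, NR1D1 at 1.402, NR1D2 at 1.72, DBP at 1.403 and CRY2 at 0.95. Only ARNTL of the 9 genes was then beyond 2 in size, as in the main fit. With limma-voom 1 clock gene was higher in liver, since CRY1 had an FDR of 0.0576. With the boar as a block also 1 was higher in liver, and PER1 and CRY1 were the only clock genes whose call the paired fit changed. Leaving out 1 library at a time, 1 to 2 clock genes were higher in liver. The difference of PER1 over PER2, 0.25, ran from -0.26 without liver 69 to 0.76 without liver 67, and its cause was not tested. The hour of sampling is not given, and its part in these values was not tested.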
